A study of Mus musculus with 45 samples.

Results

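The Polycomb complex genes described here are Ezh1, Ezh2, Eed, Suz12, Jarid2 and Mtf2, which encode subunits of Polycomb repressive complex 2 (PRC2), and Rnf2, Cbx2, Cbx7 and Pcgf6, which encode subunits of Polycomb repressive complex 1 (PRC1). They were taken by gene symbol, and they are 10 of the 35372 genes counted in every library. All 10 passed the filter on low counts in every comparison, and the smallest count of any of them in any library was 271 reads. The cells were a wild-type male mouse embryonic stem cell (ESC) line, E14tg2a, of 129/Ola strain. They were kept either in serum with LIF (SL) or, for up to 3 passages, in 2iL. The latter is a serum-free N2B27 medium with LIF, the GSK3 inhibitor CHIR99021 and the MEK inhibitor PD0325901. From each medium they were differentiated along 3 courses. The course labelled EB grew as aggregates in suspension with serum and without LIF. The course labelled EpiSC grew attached in N2B27 with Fgf2 and Activin A, and the course labelled Neural grew attached in N2B27 alone. Ribosomal RNA-depleted, strand-specific RNA-seq was made at days 0, 1, 1.5, 2, 2.5, 3, 5 and 7, with 1 library for each medium, course and day. The 45 libraries therefore hold 3 day-0 libraries from 2iL, 1 day-0 library from SL that served every course, 20 later libraries from 2iL and 21 from SL. The 2iL EpiSC library of day 5 was not analysed here. The line is a single cell line, and nothing in the labels says that libraries of 1 medium and day came from separate derivations.

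PRC2 places methyl groups on lysine 27 of histone H3, with Ezh1 or Ezh2 as the methyltransferase and Eed and Suz12 as core subunits without which the complex is not active. Jarid2 and Mtf2 are accessory subunits that define alternative forms of PRC2 and help to bring it to CpG-rich DNA. PRC1 places ubiquitin on histone H2A through Rnf2 (Ring1b), and its forms are told apart by a Pcgf subunit and by the presence or absence of a Cbx protein that binds the PRC2 mark. Both complexes are known for keeping developmental genes silent in ESCs, where Cbx7 is the usual Cbx protein, and for the facultative silencing of one X chromosome in female cells.

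Suz12, Mtf2 and Eed had the most similar courses of all members, as described below, and Ezh2, which makes up the same complex, did not follow them. The sequence around the start of these 4 genes is therefore shown, from RefSeq on GRCm38.p6, over 250 bases before the start and 50 after it, written in the direction of the gene. Capitals mark any match to TTTCCCGC, TTTCGCGC, TTTGCCGC or TTTGGCGC, the spelled-out forms of an E2F-type motif, searched on both strands (GCGGGAAA, GCGCGAAA, GCGGCAAA and GCGCCAAA on the other). The motif was chosen after the sequences had been seen.
Suz12, chr11:79992856-79993155, plus strand: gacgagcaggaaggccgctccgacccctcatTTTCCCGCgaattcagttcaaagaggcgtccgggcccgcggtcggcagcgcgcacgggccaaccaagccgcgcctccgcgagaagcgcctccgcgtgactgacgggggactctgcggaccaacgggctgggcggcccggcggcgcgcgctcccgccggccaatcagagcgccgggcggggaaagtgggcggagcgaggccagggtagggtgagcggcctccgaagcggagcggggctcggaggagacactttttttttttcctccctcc
Mtf2, upstream start, chr5:108065424-108065723, plus strand: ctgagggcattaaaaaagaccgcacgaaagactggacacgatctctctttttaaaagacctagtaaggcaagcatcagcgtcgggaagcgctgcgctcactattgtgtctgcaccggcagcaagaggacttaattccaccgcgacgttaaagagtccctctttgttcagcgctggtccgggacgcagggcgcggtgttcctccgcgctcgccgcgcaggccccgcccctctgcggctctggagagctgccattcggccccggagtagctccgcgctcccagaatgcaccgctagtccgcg
Eed, chr7:89980927-89981226, minus strand: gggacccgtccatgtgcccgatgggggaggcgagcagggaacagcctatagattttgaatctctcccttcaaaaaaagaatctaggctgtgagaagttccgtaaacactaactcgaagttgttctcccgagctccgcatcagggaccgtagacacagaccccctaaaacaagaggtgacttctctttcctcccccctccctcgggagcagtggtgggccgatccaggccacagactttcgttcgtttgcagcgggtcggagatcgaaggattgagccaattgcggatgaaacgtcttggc
Ezh2, chr6:47594981-47595280, minus strand: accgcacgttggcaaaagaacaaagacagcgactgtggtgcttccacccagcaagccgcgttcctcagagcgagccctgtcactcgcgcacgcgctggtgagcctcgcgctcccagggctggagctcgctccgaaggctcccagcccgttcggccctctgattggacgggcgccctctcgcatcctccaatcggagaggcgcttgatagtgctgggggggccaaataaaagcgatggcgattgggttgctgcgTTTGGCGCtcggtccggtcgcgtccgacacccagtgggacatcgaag
Suz12 held 1 match, TTTCCCGC, and Ezh2 held 1, TTTGGCGC. No match was found in the windows of Mtf2 and Eed, so the letters were not shared by the 3 genes that moved together. Of 32851 promoters of the same length in the table, 744 (2.26%) held a match, as did 2 of the 11 starts listed for the 9 members with an entry (all but Cbx2). Since the motif was chosen with these sequences in view, setting these shares side by side is not a test. The dinucleotide CG occurred 41 times in the Suz12 window, 31 times in that of Ezh2, 30 times in that of Mtf2 and 17 times in that of Eed, against a median of 7 over all promoters. A second listed start of Mtf2, chr5:108077915-108078214, is not shown. Its window held CG 2 times and no match.

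Read counts were divided by the library total and are given as CPM, the reads of a gene scaled to a common library total. Totals ranged from 13093226 to 39804240 counted reads with a median of 18222720, and the 8 libraries of the 2iL EB course were among the deepest, from 31055159 upwards. No 2 libraries of the same medium and day looked like copies of each other: the 43 such pairs differed by at least 18.6 times the counting noise. The labelled states were checked against marker genes listed for the purpose. The summed level of 7 pluripotency genes was 4699 to 4894 CPM in the 2iL day-0 libraries, 3266 CPM in that from SL and 195 to 949 CPM at days 5 and 7. Most of the day-0 gap was Tfcp2l1, at a mean of 1892 CPM in 2iL and 623 CPM in SL. Nanog (928 against 632 CPM) and Esrrb (782 against 561 CPM) were also higher in 2iL. Pou5f1 (529 against 719 CPM), Zfp42 (342 against 383 CPM), Klf4 (85.0 against 89.8 CPM) and Sox2 (256 against 260 CPM) were not. At days 5 and 7 all 4 EB libraries carried 5 mesoderm genes at a sum of 175 to 725 CPM and the 4 Neural libraries 4 neural genes at a sum of 344 to 612 CPM. The Neural libraries of days 5 and 7 also held 5 endoderm genes at a sum of 347 to 891 CPM, most of it from Dab2. The EpiSC libraries of those days held 4 fibroblast-type genes, mostly the collagen Col3a1, at a sum of 93.8 to 757 CPM. Markers did not set the EpiSC libraries apart as labelled: 4 formative or primed epiblast genes summed to 433 to 756 CPM there, within the 313 to 2465 CPM of EB and above the 132 to 325 CPM of Neural, and their neural genes, at 174 to 374 CPM, reached into the Neural range. Most of that neural sum was Nes, at a mean of 182 CPM in EpiSC, 148 CPM in EB and 246 CPM in Neural. Means of the others were lower in EpiSC than in Neural: Pax6 12.3 against 58.1 CPM, Tubb3 36.4 against 104 CPM and Sox1 46.6 against 59.3 CPM. In RNA from whole cultures, fewer cells of a type and less RNA per cell cannot be told apart.

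Levels between genes were compared per kilobase of exon, all annotated exon bases counted. In 2iL at day 0, Mtf2 stood highest at 84.7 ± 8.77 CPM per kilobase (SD, n = 3), followed by Suz12 at 60.6 ± 7.07, Eed at 31.8 ± 2.05, Rnf2 at 27.6 ± 2.70 and Jarid2 at 19.9 ± 1.91 CPM per kilobase. Ezh2 at 11.2 ± 1.88, Pcgf6 at 10.4 ± 1.32, Cbx2 at 6.84 ± 0.851, Cbx7 at 5.12 ± 1.28 and Ezh1 at 3.73 ± 0.504 CPM per kilobase came lower. Every neighbouring pair down to Jarid2 and Ezh2 had separate ranges over the 3 libraries, whereas the ranges of Ezh2 and Pcgf6, of Cbx2 and Cbx7, and of Cbx7 and Ezh1 overlapped. The place of Ezh2 in this order depended on the length used, since its longest transcript has 2787 bases against 6678 exon bases in all: per kilobase of longest transcript it reached 26.8, above Jarid2 at 23.2. At days 5 and 7 the order was another one, with Rnf2 first at 32.5 ± 4.01 CPM per kilobase (SD, n = 11) and Mtf2 at 21.4 ± 3.59, and with Cbx2 at 15.1 ± 4.80, close to Suz12 at 16.2 ± 3.21 and Eed at 14.21 ± 1.49. The late order of these 3 also depended on the length: per kilobase of longest transcript Eed stood at 26.3, above Suz12 at 18.3 and Cbx2 at 16.9. The plot of CPM by day shows every library.

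**Figure D1:**
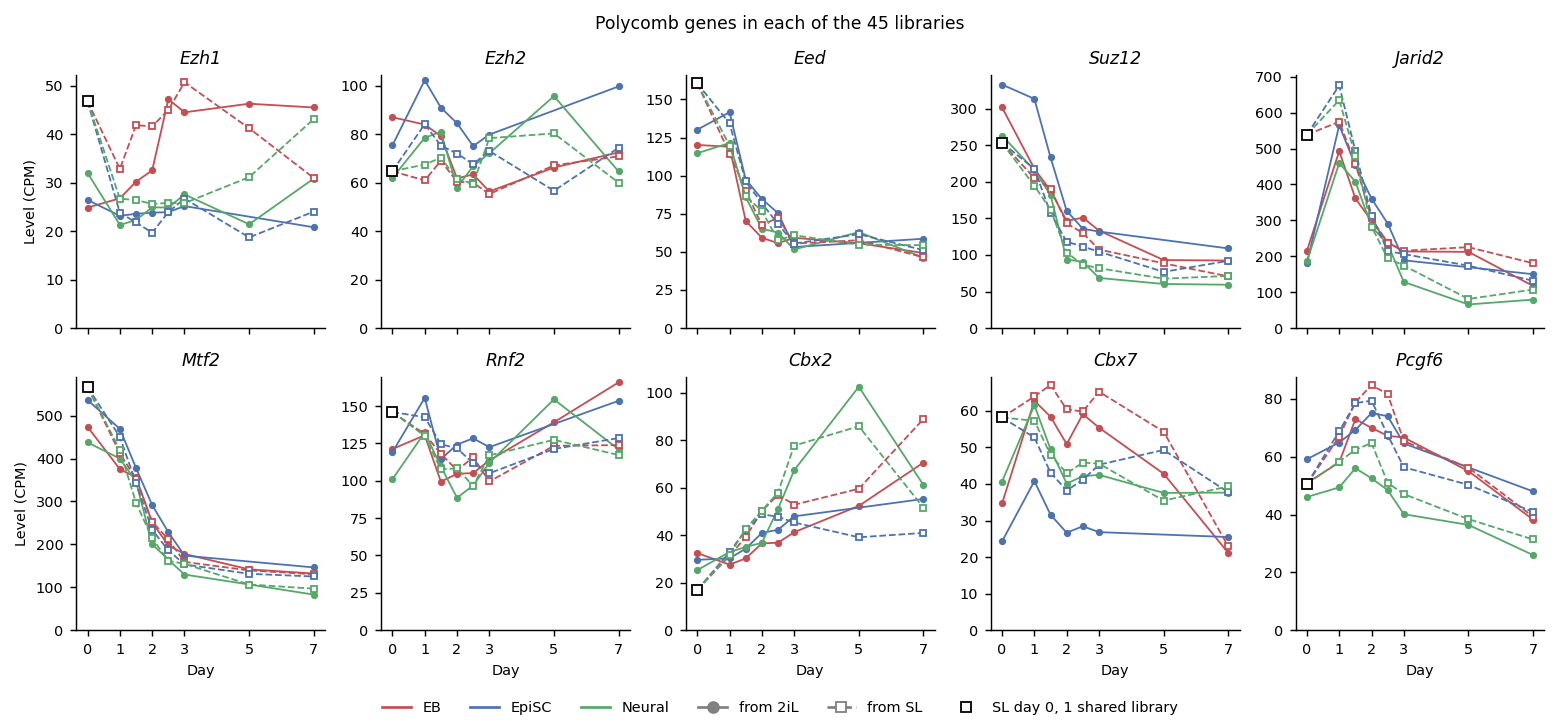
Level of each Polycomb gene in CPM (vertical axes, each from 0) against day of differentiation (horizontal axes) in all 45 libraries. Colours are the 3 courses, filled circles with solid lines the cells from 2iL and open squares with dashed lines those from SL; the black square is the SL day-0 library that all SL lines share, and lines only join points of a course. Eed, Suz12 and Mtf2 fell in every line, Cbx2 ended higher than it began, and Jarid2 from 2iL peaked at day 1.

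The core subunits Eed and Suz12 fell in all 6 lines of differentiation. Suz12 (ENSMUSG00000017548, chr11:79993106-80034123, plus strand) stood at 302, 333 and 263 CPM in the EB, EpiSC and Neural day-0 libraries from 2iL and at 253 CPM in that from SL. By days 5 and 7 the 5 libraries from 2iL held 93.1 and 92.4 CPM (EB), 109 CPM (EpiSC, day 7) and 60.3 and 59.3 CPM (Neural), and the 6 from SL had a median of 74.1 CPM with a range of 67.6 to 92.0. No library of days 5 and 7 reached the lowest one of days 0 to 1.5. Within 2iL the fall from day 0 to days 5 and 7 was 0.264-fold, a log2 fold change of -1.92 (SE 0.12, adjusted p = 2.85e-09). All such p-values are from edgeR's quasi-likelihood test, adjusted over all genes tested, and a gene was called when its adjusted p was under 0.05. The fall had already reached -0.85 (SE 0.12, adjusted p = 2.2e-05) at days 1.5 and 2. Eed (ENSMUSG00000030619, chr7:89954654-89980983, minus strand), the subunit that binds the finished histone mark, held 120, 130 and 115 CPM in the 2iL day-0 libraries and 161 CPM in that from SL. From 2iL it kept that level for a day, at 119, 142 and 121 CPM at day 1. From SL it stood at 115, 134 and 120 CPM at day 1, below the 1 day-0 library. Eed then fell to between 46.2 and 63.0 CPM in the 5 late libraries from 2iL and to between 46.4 and 61.6 CPM in the 6 from SL. The log2 fold change from day 0 within 2iL was 0.05 (SE 0.11, adjusted p = 0.788) at day 1, -0.64 (SE 0.09, adjusted p = 3.56e-05) at days 1.5 and 2, and -1.18 (SE 0.10, adjusted p = 3.84e-08) at days 5 and 7. At day 3 all 6 Eed values lay between 51.6 and 60.9 CPM, so most of its fall was over by then.

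Of the accessory subunits, Mtf2 fell throughout and Jarid2 rose first from 2iL and then fell. Mtf2 (ENSMUSG00000029267, chr5:108065674-108109004, plus strand), a Polycomb-like protein, held 474, 537 and 438 CPM in the EB, EpiSC and Neural day-0 libraries from 2iL and 567 CPM in the SL library. At days 5 and 7 it held 82.8 to 146 CPM in the 5 libraries from 2iL and 96.7 to 139 CPM in the 6 from SL, all below every earlier library of days 0 to 2. Its fall within 2iL was 0.245-fold from day 0 (log2 fold change -2.03, SE 0.10, adjusted p = 2.24e-10), the largest among the members, and -0.66 (SE 0.10, adjusted p = 4.95e-05) at days 1.5 and 2. Jarid2 (ENSMUSG00000038518, chr13:44729474-44921643, plus strand), which can stimulate the methyltransferase, stood lower in 2iL than in the 1 SL library before differentiation: the 2iL day-0 libraries held 215, 181 and 186 CPM and the SL library 539 CPM. After 1 day the 2iL libraries had risen to 493, 565 and 460 CPM, and those from SL stood at 575, 676 and 635 CPM. From there it fell in all 6 lines, to 65.8 and 79.3 CPM in the Neural libraries of days 5 and 7 from 2iL and to 212 and 117 CPM in the EB libraries. The rise at day 1 was 2.56-fold (log2 fold change 1.36, SE 0.26, adjusted p = 0.000956). It was 0.92 (SE 0.23, adjusted p = 0.00338) at days 1.5 and 2. The level at days 5 and 7 lay below day 0 by a log2 fold change of -0.72 (SE 0.23, adjusted p = 0.011). The last of these rested on the Neural course: without it the value was -0.32 with an adjusted p of 0.106. Without the EpiSC course the rise at day 1 had an adjusted p of 0.0598 and that at days 1.5 and 2 one of 0.089.

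The 2 methyltransferase genes showed no common change with time. Ezh2 (ENSMUSG00000029687, chr6:47530139-47595341, minus strand) had the narrowest spread of all members, from 55.3 CPM (SL EB, day 3) to 102 CPM (2iL EpiSC, day 1), a ratio of 1.85 over the 45 libraries. Its values at day 0 were 86.9, 75.3 and 61.9 CPM from 2iL and 64.7 CPM from SL. At days 5 and 7 they were 64.6 to 99.6 CPM from 2iL and 56.6 to 80.3 CPM from SL, so the groups overlapped. The log2 fold change in 2iL from day 0 to days 5 and 7 was 0.05 (95% interval -0.25 to 0.34, adjusted p = 0.781). Without the EB course it became 0.35 with an adjusted p of 0.018, and the day-1 value became 0.36 with an adjusted p of 0.0426. Ezh1 (ENSMUSG00000006920, chr11:101191115-101226463, minus strand), the paralogue more used in cells that do not divide, ranged from 18.7 CPM (SL EpiSC, day 5) to 50.7 CPM (SL EB, day 3). Its course over time was not the same in every line. From 2iL the EB libraries went from 24.8 CPM at day 0 to 46.3 and 45.5 CPM at days 5 and 7. The EpiSC course went from 26.4 to 20.8 CPM at day 7 and the Neural course from 32.0 to 21.4 and 30.8 CPM. Over the 3 courses its change from day 0 to days 5 and 7 was 0.03 (95% interval -0.37 to 0.44, adjusted p = 0.895). Without the EB course it became -0.44 with an adjusted p of 0.032.

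The PRC1 genes moved in different directions. Cbx2 (ENSMUSG00000025577, chr11:119022962-119031270, plus strand) was lowest of all in the SL day-0 library, at 17.0 CPM, and held 32.4, 29.6 and 25.3 CPM in the 2iL day-0 libraries. It rose to 52.3 and 70.5 CPM at days 5 and 7 in EB from 2iL, 55.2 CPM in EpiSC at day 7, and 102 and 61.1 CPM in Neural, so that no late library from 2iL overlapped day 0. The rise was 2.2-fold (log2 fold change 1.14, SE 0.18, adjusted p = 4.78e-05). Cbx7 (ENSMUSG00000053411, chr15:79915807-79971119, minus strand) held 34.7, 24.3 and 40.7 CPM in the 2iL day-0 libraries, 62.8, 40.8 and 61.6 CPM at day 1, and 21.1 to 42.8 CPM at days 5 and 7. The day-1 rise was 1.64-fold (log2 fold change 0.72, SE 0.18, adjusted p = 0.00851). For the late level against day 0 no difference was detected (-0.14, SE 0.17, adjusted p = 0.48). The day-1 call was lost without the EpiSC or the Neural course, with adjusted p values up to 0.18. Rnf2 (ENSMUSG00000026484, chr1:151458004-151500955, minus strand), the ubiquitin ligase, varied by a ratio of 1.87 over all libraries. It held 121, 119 and 101 CPM at day 0 and 121 to 166 CPM at days 5 and 7 from 2iL, ranges that touched. The difference was 0.32 (SE 0.10, adjusted p = 0.0095), but without the EpiSC or the Neural course it no longer passed the threshold, at adjusted p values up to 0.133. Pcgf6 (ENSMUSG00000025050, chr19:47033617-47050906, minus strand), which belongs to a PRC1 form without a Cbx protein, was highest at day 1.5 or 2 in all 6 lines. From 50.9, 59.2 and 46.1 CPM at day 0 it reached 73.0, 75.1 and 56.0 CPM at its highest in the 3 courses from 2iL and then fell to 26.0 to 55.02 CPM at days 5 and 7. Its changes from day 0 were 0.38 (SE 0.10, adjusted p = 0.00408) at days 1.5 and 2 and -0.38 (SE 0.10, adjusted p = 0.00273) at days 5 and 7, the latter losing its call without the Neural course (-0.26, adjusted p = 0.0934).

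Counted over the members, 2 rose and none fell at day 1 from 2iL, beside 14.6% of 16306 tested genes that rose and 14% that fell. At days 1.5 and 2, 2 rose (Jarid2, Pcgf6) and 3 fell (Eed, Suz12, Mtf2), where 24.7% of all genes rose and 23% fell. At days 5 and 7, 2 rose (Rnf2, Cbx2) and 5 fell (Eed, Suz12, Jarid2, Mtf2, Pcgf6), where 33.8% of all genes rose and 30.9% fell. The median log2 fold change of the 10 members at days 5 and 7 was -0.26 against 0.03 over all genes tested. Dividing by library totals in place of TMM normalisation (a trimmed mean of ratios between libraries) moved the median of all genes in that comparison to 0.11, and no member that passed the threshold changed direction. These comparisons share the 3 day-0 libraries.

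Whether the media differed before differentiation was asked with the 3 day-0 libraries from 2iL against the 1 from SL, so the spread came from the 2iL libraries and the SL library was assumed to vary like them. A call therefore sets that library, rather than SL cultures, apart. Jarid2 was 0.375-fold as high in 2iL as in SL (log2 fold change -1.42, SE 0.16, adjusted p = 0.000422), and Ezh1, at 24.8, 26.4 and 32.0 CPM against 46.7 CPM, was 0.621-fold (-0.69, SE 0.21, adjusted p = 0.0328). Cbx2 was 1.79-fold as high in 2iL (0.84, SE 0.19, adjusted p = 0.0117). Cbx7, its counterpart in ESCs, stood at 24.3 to 40.7 CPM in 2iL and 58.2 CPM in SL, a log2 fold change of -0.74 (SE 0.27, adjusted p = 0.066). In all, 1 member was called higher and 2 lower, beside 13.5% and 17.3% of the 14948 genes tested. With the spread taken over all 45 libraries, Jarid2 kept its call, whereas Ezh1 (adjusted p = 0.387) and Cbx2 (adjusted p = 0.115) did not. The SL library also held the 5 endoderm genes at a sum of 152 CPM, against 2.19 to 5.17 CPM in the 2iL day-0 libraries; their part in the result was not tested.

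The days after the cells had left their starting medium allow the same contrast in both media, days 5 and 7 against days 1 and 1.5. Jarid2, Mtf2, Suz12, Eed, Pcgf6 and Cbx7 fell and Cbx2 rose in both. From 2iL, Jarid2 went from a median of 456 CPM (range 361 to 565, n = 6) to one of 117 CPM (65.8 to 212, n = 5), and from SL from 534 CPM (458 to 676, n = 6) to 153 CPM (81.0 to 225, n = 6). No late library reached an early one of its medium. The log2 fold changes were -1.94 (SE 0.20) and -1.96 (SE 0.15). Mtf2 changed by -1.71 (SE 0.09) and -1.68 (SE 0.05), Suz12 by -1.5 (SE 0.11) and -1.31 (SE 0.08), and Eed by -0.94 (SE 0.08) and -1.01 (SE 0.06), and the adjusted p values of these 4 genes were at most 4.42e-07 from 2iL and 1.98e-08 from SL. Each of these 4 genes fell within each of the 6 lines of medium and course. Pcgf6 fell less, by log2 fold changes of -0.62 (SE 0.08, adjusted p = 5.72e-06) and -0.75 (SE 0.05, adjusted p = 1.16e-08). Those of Cbx7 were -0.74 (SE 0.14, adjusted p = 0.000205) and -0.51 (SE 0.15, adjusted p = 0.00688), while the early and late values of Cbx7 overlapped in both media. Cbx2 rose by 1.04 (SE 0.15, adjusted p = 9.67e-06) from 2iL and 0.67 (SE 0.16, adjusted p = 0.00163) from SL, higher in 6 of 6 lines, although its smallest rise, in the SL EpiSC course, was 0.10 on the log2 scale. The early and late values of Cbx2 overlapped from SL (31.3 to 42.6 and 39.1 to 88.9 CPM) but not from 2iL. Ezh2 changed by -0.14 (SE 0.11, adjusted p = 0.291) and -0.09 (SE 0.09, adjusted p = 0.36), and Ezh1 by 0.25 (SE 0.16, adjusted p = 0.174) and 0.09 (SE 0.14, adjusted p = 0.601).

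**Figure D2:**
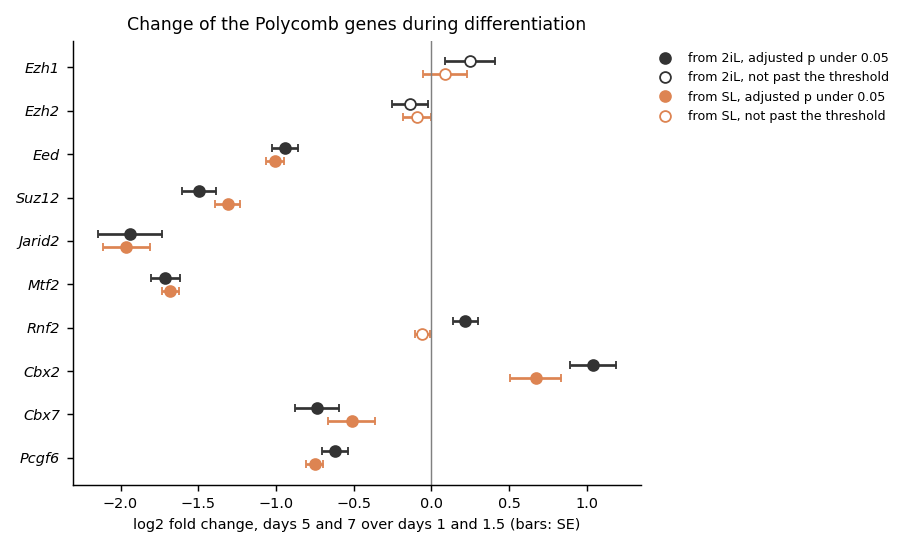
Log2 fold change of each Polycomb gene at days 5 and 7 over days 1 and 1.5 (horizontal axis, bars are the standard error) in cells from 2iL (dark, 5 late and 6 early libraries) and from SL (orange, 6 and 6). Filled points passed an adjusted p of 0.05; Jarid2 at -1.94 and -1.96 lies farthest left, Cbx2 at 1.04 and 0.67 farthest right, and Ezh1 and Ezh2 are open in both media.

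From 2iL 2 members were called higher and 6 lower, and from SL 1 higher and 6 lower. Among all genes, 36.8% were called higher and 33.0% lower from 2iL, and 37.0% and 33.3% of 15483 genes from SL, so calls are common in this contrast whatever the gene. The median of the members was -0.68 from 2iL and -0.63 from SL, against 0.03 and 0.04 over all genes. The difference between the 2 changes was tested gene by gene. Rnf2 alone of the members passed, with a change of 0.22 (SE 0.08, adjusted p = 0.0266) from 2iL, one of -0.06 (SE 0.05, adjusted p = 0.277) from SL and a difference of 0.28 (SE 0.09, adjusted p = 0.0488). The rise from 2iL itself lost its call without any 1 course, with adjusted p values up to 0.124. For the difference, 4.95% of all genes passed in this direction and 4.17% in the other. The call of the difference, close to the threshold, was lost without any 1 of the 3 courses, with adjusted p values up to 0.301. For the other 9 members the test did not pass, and the 95% intervals of the difference allow, for instance, -0.49 to 0.52 for Jarid2 and -0.26 to 0.17 for Mtf2. Genes of cycling cells moved in the same contrast as Eed, Suz12, Mtf2 and Jarid2. Of 8 of them, 6 were lower from 2iL and 7 from SL. Their summed level was 3661 to 4259 CPM early and 2049 to 3394 CPM late from 2iL, and 3417 to 3862 CPM early and 2226 to 3032 CPM late from SL. Their part in the result was not tested.

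After day 0 few members were called by starting medium, and a test that did not pass does not show equal levels. At days 1 to 3, over 15 libraries from each medium, Ezh2 had a median of 78.5 CPM (56.3 to 102) in cells from 2iL and 67.6 CPM (55.3 to 84.1) in cells from SL, and Suz12 one of 151 CPM (68.6 to 314) and 130 CPM (81.9 to 218). The ranges overlapped almost wholly, but with day and course in the model both were higher from 2iL, by 0.18 (SE 0.06, adjusted p = 0.0135) and 0.22 (SE 0.06, adjusted p = 0.00688) on the log2 scale. In this fit no member was called lower, beside 20.6% of 16467 genes that were called higher and 19.6% that were called lower. Without the EpiSC course neither gene passed, at adjusted p values up to 0.31, and neither passed with no course block. Ezh2 also lost its call without the EB course and with library totals in place of TMM. Cbx2 (-0.22, adjusted p = 0.0729) and Pcgf6 (-0.09, adjusted p = 0.065) were called lower from 2iL with library totals or with only the days compared. Cbx7 (-0.20, adjusted p = 0.16) was called lower with only the days compared. The 5 endoderm genes held a sum of 9.21 to 33.6 CPM at days 1 and 1.5 from 2iL and 174 to 347 CPM from SL, and their part in these differences was not tested. For Jarid2, at -1.42 in 2iL against SL at day 0, the log2 difference averaged over days 1 to 3 was -0.05 (95% interval -0.27 to 0.16, adjusted p = 0.72). That average covers days that went in different directions. Jarid2 was still lower from 2iL at day 1 (460 to 565 against 575 to 676 CPM) and day 1.5 (361 to 453 against 458 to 493 CPM). Its mean was higher from 2iL at days 2 (314 against 300 CPM) and 2.5 (255 against 215 CPM), and lower at day 3 (177 against 199 CPM). At days 5 and 7 Rnf2 was higher in cells from 2iL, at a median of 154 CPM (121 to 166, n = 5) against 124 CPM (117 to 129, n = 6), by 0.26 (SE 0.07, adjusted p = 0.0418), and no other member passed, beside 0.468% of genes called higher and 0.553% called lower. Leaving out any 1 course, or taking library totals in place of TMM, ended the Rnf2 call.

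At days 5 and 7 the courses could be compared, with the 4 pairs of medium and day (3 where EpiSC enters) standing as replicates. The mean level was lowest in Neural for Jarid2, Mtf2 and Pcgf6. Jarid2 held 65.8, 79.3, 81.0 and 107 CPM in the Neural libraries (2iL day 5 and day 7, SL day 5 and day 7), 212, 117, 225 and 180.5 CPM in the matching EB libraries, and 150, 174 and 132 CPM in the EpiSC libraries (2iL day 7, SL day 5 and day 7). No Neural library reached an EB or EpiSC one. The log2 fold change was 1.02 (SE 0.20, adjusted p = 0.00998) for EB over Neural and 0.77 (SE 0.22, adjusted p = 0.0484) for EpiSC over Neural. Mtf2 held 82.8 to 106 CPM in Neural, 130 to 142 CPM in EB and 125 to 146 CPM in EpiSC, again without overlap, and differed by 0.37 (SE 0.08, adjusted p = 0.0145) and 0.40 (SE 0.09, adjusted p = 0.0268). Pcgf6 held 26.0 to 38.4 CPM in Neural, 38.2 to 56.2 CPM in EB and 40.9 to 50.3 CPM in EpiSC, so Neural and EB touched at their ends, and differed by 0.40 (SE 0.10, adjusted p = 0.018) and 0.48 (SE 0.11, adjusted p = 0.0237). Suz12 also had its lowest mean in Neural, at 59.3 to 71.4 CPM there, 70.8 to 93.1 CPM in EB and 76.9 to 109 CPM in EpiSC. Its Neural and EB ranges touched at their ends. It passed neither test (0.31, SE 0.13, adjusted p = 0.0984 for EB over Neural and 0.42, SE 0.14, adjusted p = 0.0721 for EpiSC over Neural). With 3 or 4 pairs these calls were fragile: without SL day 5 no member passed for EB over Neural, and none passed for EpiSC over Neural without SL day 5, SL day 7 or 2iL day 7, when adjusted p values rose to 0.205 at most.

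**Figure D3:**
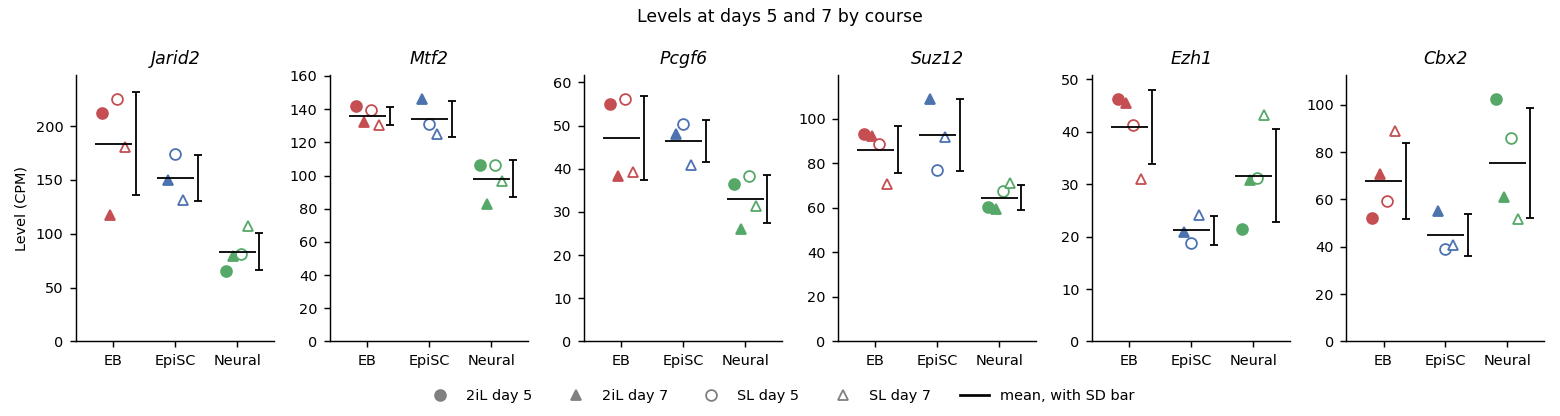
Level in CPM (vertical axes, each from 0) of 6 Polycomb genes at days 5 and 7 in the EB, EpiSC and Neural courses. Each point is a library (circles day 5, triangles day 7, filled from 2iL, open from SL), the horizontal line is the mean of 4, 3 and 4 libraries and the bar beside it the SD; Jarid2 in Neural, at 65.8 to 107 CPM, lies below every EB and EpiSC library.

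In these course comparisons 3 members were called higher and none lower in EB over Neural, beside 13.1% and 15.7% of 15466 genes, and 3 higher and none lower in EpiSC over Neural, beside 7.35% and 8.67%. Over all genes, 2022 were called higher and 2424 lower in EB over Neural with TMM, and 2733 and 2012 with library totals. In EpiSC over Neural the numbers were 1136 and 1341 with TMM and 1496 and 1059 with library totals, so which course holds more genes at a higher level depends on the scaling. Between EB and EpiSC edgeR called no member, beside 0.938% of genes higher and 1.69% lower; 1 member had an unadjusted p under 0.05, and DESeq2 called that 1. It was Ezh1, at 46.3, 45.5, 41.2 and 30.9 CPM in EB and 20.8, 18.7 and 24.0 CPM in EpiSC, a 2.01-fold difference without overlap (log2 fold change 1.01, SE 0.25, adjusted p = 0.0743 by edgeR). Cbx2 had its lowest late levels in EpiSC, at 55.2, 39.1 and 40.9 CPM, against 51.6 to 102 CPM in Neural (-0.80 for EpiSC over Neural, SE 0.30, adjusted p = 0.105). The marker sums given above, mesoderm genes in EB, endoderm with neural genes in Neural and collagen genes in EpiSC, move with these same groups, and their part in the differences was not tested.

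Taken per length, the balance within 2 pairs of paralogues was followed over time. The Cbx7 to Cbx2 ratio of CPM per kilobase was 2.25 in the SL day-0 library and 0.538 to 1.06 in the 3 from 2iL. Over the 12 libraries of days 1 and 1.5 its median was 1.09, with 7 libraries above 1, and over the 11 libraries of days 5 and 7 it was 0.404, with a range of 0.169 to 0.828 and none above 1. The lowest ratios of all were those of the 2 EB libraries of day 7, at 0.169 from SL and 0.197 from 2iL. The Ezh1 to Ezh2 ratio stayed below 1 in all 45 libraries, from 0.187 to 0.823. From day 2 on it had a median of 0.623 in the 10 EB libraries (0.392 to 0.823), 0.286 in the 9 EpiSC libraries (0.187 to 0.328) and 0.361 in the 10 Neural libraries (0.201 to 0.645). EB and EpiSC did not overlap in it. Ratios that set 2 genes side by side depend on the lengths assigned to them, whereas their course over time does not.

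**Figure D4:**
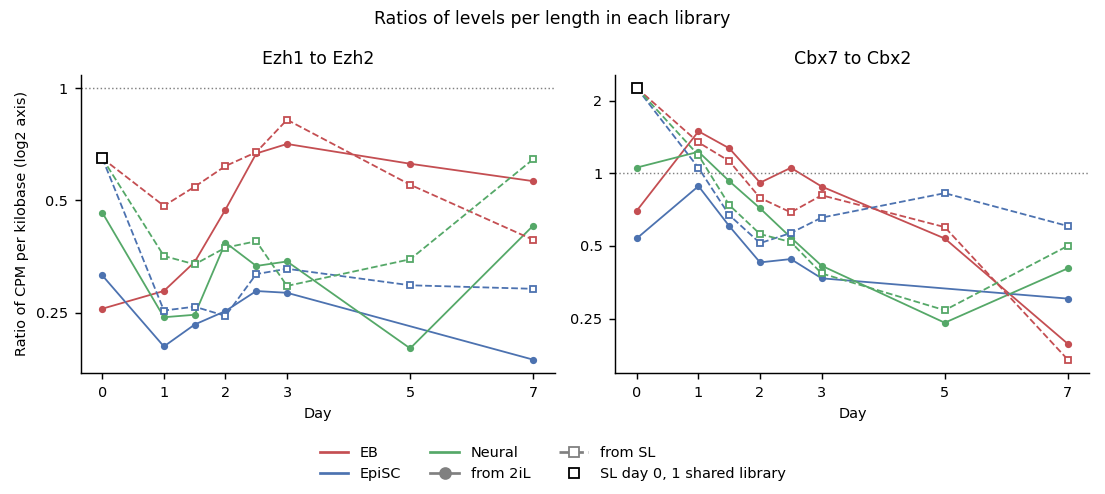
Ratio of CPM per kilobase (vertical axis, log2-spaced) of Ezh1 to Ezh2 (left) and of Cbx7 to Cbx2 (right) against day in the 45 libraries. Colours, symbols and lines are those of the plot of CPM by day and the dotted line marks a ratio of 1; the Ezh1 to Ezh2 ratio stays under 1 everywhere, and the Cbx7 to Cbx2 ratio is under 1 in all 11 libraries of days 5 and 7.

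Over the 45 libraries, many of which have a course, a medium or a day in common, the members most alike in log2 CPM were Mtf2 and Suz12 (Pearson r = 0.96), Mtf2 and Eed (0.93), Suz12 and Eed (0.87) and Mtf2 and Jarid2 (0.82). Cbx2 went opposite to Suz12 (-0.84), Mtf2 (-0.82) and Eed (-0.76), and Ezh1 opposite to Ezh2 (-0.54). Cbx7 was most like Jarid2 (0.45), Pcgf6 most like Jarid2 (0.70) and Rnf2 most like Ezh2 (0.55). These values describe the libraries, which are not independent of each other along a course.

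Of 33 further genes of the Polycomb system, 10 rose and 12 fell from 2iL between days 1 and 1.5 and days 5 and 7, and 14 rose and 12 fell from SL. These shares lie near those over all genes, 36.8% higher and 33.0% lower from 2iL and 37.0% and 33.3% from SL. Their median log2 fold change was 0.16 from 2iL and 0.10 from SL. Of these genes, 10 rose and 11 fell in both media. Among the 7 other PRC2 genes, 1 rose and 3 fell in each medium. Among the 21 other PRC1 genes, 8 rose and 6 fell from 2iL, and 11 rose and 6 fell from SL. Of the 5 genes for enzymes that remove the 2 marks or their partners, 1 rose and 3 fell from 2iL, and 2 rose and 3 fell from SL. The 3 with the largest rise were Phc2, a polyhomeotic subunit of PRC1 (2.33, SE 0.29 from 2iL and 1.95, SE 0.25 from SL), Yaf2, a partner of Ring proteins in PRC1 forms without Cbx (2.37, SE 0.20 and 1.61, SE 0.13), and the Cbx protein gene Cbx8 (1.92, SE 0.48 and 2.03, SE 0.33). Cbx8 stood low throughout. Its mean went from 0.600 CPM early to 3.30 CPM late from 2iL, and from 0.592 to 2.78 CPM from SL. At day 0 Cbx8 already held a mean of 3.27 CPM in 2iL, against 0.329 CPM in the SL library. The 3 with the largest fall were Phc1, the polyhomeotic paralogue of Phc2 (-1.74, SE 0.31 and -1.45, SE 0.25), L3mbtl2, which shares a PRC1 form with Pcgf6 (-1.89, SE 0.15 and -1.14, SE 0.06), and E130012A19Rik, an earlier symbol of the PRC2 accessory gene Epop (-1.45, SE 0.22 and -1.44, SE 0.18).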

How the data were processed

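RNA-seq was made from 45 libraries, 1 for each medium, course and day. The authors trimmed reads with TrimGalore, aligned them with TopHat2 to GRCm38/mm10 with Ensembl 82 gene models and summed strand-matched reads over each gene with featureCounts. The labels also name DESeq2, and versions are not given in the sources used here. The deposited counts are raw whole-number counts of reads per gene, with no normalisation. CPM was computed from them over the library total. Differences were tested on the counts with edgeR 4.0.16 in R 4.3.3 (TMM normalisation, filterByExpr, quasi-likelihood F test, Benjamini-Hochberg adjustment over all genes tested, threshold 0.05), with course as a block term and the 3 courses standing as replicates of a day. Course comparisons at days 5 and 7 used each medium and day as a block. These blocks take out constant differences between courses, or between media and days. P-values therefore measure how unevenly changes ran across courses, or course differences across media and days, over all libraries of a fit. They do not measure the spread between repeats of 1 course. Beyond the block, libraries of 1 course at different days entered a fit as independent, although they lie along the same course. In the course comparisons days 5 and 7 of 1 medium likewise counted as separate replicates. Standard errors and p-values take no account of this and may be too small. The day-0 comparison of the media had no block. Standard errors are the log2 fold change over the root of F, and intervals use the matching t quantile. The labels give no replicate numbers, and libraries were tied across days and media by course.

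The members and the gene lists were chosen with earlier results of these data known. All 10 members are named, and of the other Polycomb genes at most 3 risers and 3 fallers called in the same direction in both media, by mean log2 fold change. Gene positions and lengths come from GENCODE on GRCm38, and no member shares exon bases with another gene on its strand. The procedure was tested on simulated data. Alternatives were library totals or DESeq2 size factors (RLE) for TMM, the DESeq2 1.42.0 Wald test, no filter, no block, another choice of libraries in the fit, and leaving out each course or each medium and day in turn.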

Additional observations from a re-analysis of the deposited data

Results flagged for a closer look

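Rnf2 was the 1 member whose change from days 1 and 1.5 to days 5 and 7 differed between cells from 2iL and from SL in a test of the difference itself, by 0.28 on the log2 scale (SE 0.09, adjusted p = 0.0488 by edgeR's quasi-likelihood test over 16467 genes). Its level was 99.4 to 156 CPM at days 1 and 1.5 and 121 to 166 CPM at days 5 and 7 from 2iL, and 108 to 143 CPM and 117 to 129 CPM from SL, so all 4 ranges overlap. The difference was lost in 8 of 9 alternatives, with log2 values of 0.23 to 0.32 and adjusted p values of 0.0283 to 0.301. No group of libraries held the 4 or more samples that a check for a stray sample needs.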

How the results depend on the processing

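Of the 42 member calls made in the 12 comparisons, 22 held in every alternative run, none changed direction, and 61 of 381 recomputed values lost their call; of the 78 values not called, 32 recomputed values gained a call in the same direction and 51 of 719 changed sign, 1 of them with a call. That 1 was Ezh1 in 2iL at days 5 and 7 against day 0, which went from 0.03 to between -0.44 (without the EB course) and 0.30 with a course left out, and to -0.027 with only the days compared. Every call of Eed, Suz12, Mtf2 and Jarid2 in the 2 comparisons of days 5 and 7 against days 1 and 1.5 held throughout. The number of members called moved by more than 1.5 times as follows. For 2iL against SL at day 0 it went from 3 to 1 with the spread over all 45 libraries. For 2iL day 1 against day 0 it went from 2 to 1 with no replicate block, to 5 with only the days compared, and over 0 to 4 when a course was left out. For 2iL days 5 and 7 against day 0 it went from 7 to 4 with only the days compared, and over 4 to 9 with a course left out. For the difference between the media in the late change it went from 1 to 0 with library totals, with RLE, with no filter, with no block, with only the days compared and with any course left out. For origin at days 1 to 3 it went from 2 to 0 with no block, to 5 with only the days compared and over 0 to 2 with a course left out, and at days 5 and 7 from 1 to 0 with library totals, no filter, no block, only the days compared or any course left out. For EB against Neural it went from 3 to between 0 and 2 with a medium and day left out; for EpiSC against Neural it went from 3 to 6 with DESeq2 or with all 41 later libraries and over 0 to 3; for EB against EpiSC it went from 0 to 1 with DESeq2 or no block and to 2 with all 41 later libraries, and was 0 with any medium and day left out. Some of these fits hold fewer libraries or take the spread from other ones, and log2 values moved as well. Without the EB course, for instance, Ezh2 at days 5 and 7 against day 0 from 2iL went from 0.05 to 0.35. The cause of the changed numbers was not tested.

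The count over all genes moved by more than 1.5 times in these fits: 4599 to 3046 for day 0 with the spread of all libraries; 4663 to 3053 for day 1 with no block, to 1884 without EpiSC and to 2582 without Neural; 7782 to 4806 for days 1.5 and 2 without EpiSC; 1501 to 663 (no block), 885 (only the days compared), 377 (without EpiSC) and 536 (without Neural) for the difference between media; 6622 to 3461 for origin at days 1 to 3 without EpiSC; 168 to 483 (DESeq2), 64 (no block), 13 (only the days compared), 304 (without EB) and 33 (without EpiSC) for origin at days 5 and 7; 4446 to 7418 with all 41 libraries and to between 1668 and 2612 with a medium and day left out for EB against Neural; 2477 to 3771 (DESeq2), 5634 (all 41) and 375 to 667 for EpiSC against Neural; and 406 to 1630 (DESeq2), 2931 (all 41) and 2 to 84 for EB against EpiSC. Member levels in CPM at 2iL day 0 moved by less than the SD over 3 libraries with TMM-scaled sizes, and so did both ratios with the longest transcript.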
